A study of Macaca mulatta with 24 samples.

Results

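BDNF, NTRK3, GAP43, STMN2 and L1CAM, a set of 5 neurotrophin and axon growth genes, were followed across 4 areas of the rhesus monkey (Macaca mulatta) neocortex. Their probe sets were taken as every probe set of the deposited value table whose only gene symbol was 1 of these 5 names, which gave 13 of 52865 probe sets and 5 of 14132 named genes. BDNF had 3 probe sets, NTRK3 had 4, and GAP43, STMN2 and L1CAM had 2 each. The probe sets were matched by symbol alone, but the 5 genes were chosen with earlier results of these data known. Counts of called members set beside the share of all probe sets are therefore descriptions. The set joined genes of different function, so each gene is described on its own.

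The 4 areas were primary motor cortex in its forelimb part (M1), dorsal premotor cortex (PMd), ventral premotor cortex (PMv) and prefrontal area 46 (A46), dissected by sulcal landmarks from both hemispheres of the same 3 adolescent animals. Animals 1 and 2 were males of 2.7 and 2.6 years and animal 3 was a female of 2.7 years. All were bred in group cages, none was treated experimentally, and all were perfused with cold heparinised saline after a pentobarbital overdose. RNA of each piece was hybridised to 1 one-colour Affymetrix Rhesus array, giving 24 arrays, 6 per area, with the animal as the replicate (n = 3). Fits without animal 3 hold males only.

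Neurotrophins are secreted proteins that act on tropomyosin-related kinase receptors and on the low-affinity receptor p75. BDNF, the ligand of TrkB, is made by cortical excitatory neurons and its transcription follows neuronal activity. NTRK3 encodes TrkC, the receptor of neurotrophin-3. GAP43 is a membrane phosphoprotein of growth cones and presynaptic terminals, STMN2 is a stathmin family protein that regulates microtubules in growing axons, and L1CAM is an adhesion protein of axons that binds ankyrins. In adult primate cortex, GAP43 is known to be richer in association areas than in primary areas.

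Values are array intensities, and a difference is the log2 difference between area means over 3 animals, with the standard error (SE) of limma, a linear model fitted to 26383 probe sets at or above the median intensity of 49.3. A probe set was called when its adjusted p, after Benjamini-Hochberg correction over those 26383, was under 0.05. Of the 13 probe sets, 12 passed this filter and 1, BDNF MmugDNA.24032.1.S1_at, fell below it. The median intensity of an array was 47.9 to 51.7, and any pair of arrays correlated at 0.978 to 0.997. The left PMv array of animal 1 stood furthest from its partner. The SD of its left minus right log2 values over the probe sets was 0.265, against 0.137 to 0.227 in the other 11 pairs. Markers of neurons were well measured in every area, with a summed intensity of 11300 to 12740 in M1 and 11220 to 12510 in A46 for the 3 genes present (SYT1, ENO2 and THY1).

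M1 was set against A46 first, the pair of areas with the most called probe sets in these data. BDNF MmuSTS.1378.1.S1_at, NTRK3 MmugDNA.29582.1.S1_at and both L1CAM probe sets were lower in M1, and GAP43 MmugDNA.22179.1.S1_at and STMN2 MmugDNA.24738.1.S1_at were higher in M1. These were 6 of 12 tested probe sets, where 12.9% of all tested probe sets were called in this contrast, 7.49% higher and 5.36% lower. At least 1 probe set of each of the 5 genes was called. The differences were small, with an intensity in M1 of 0.708 to 1.24 times that in A46. The median difference over the 12 probe sets was -0.14, and over all tested probe sets -0.01. The 6 arrays of M1 and the 6 of A46 did not overlap for 4 of the 12 probe sets, against 8.68% of all tested probe sets. The 3 animal means did not overlap for 7 of the 12, against 24% of all. The tissue was bulk, so fewer cells of a type and less RNA per cell cannot be told apart.

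**Figure D1:**
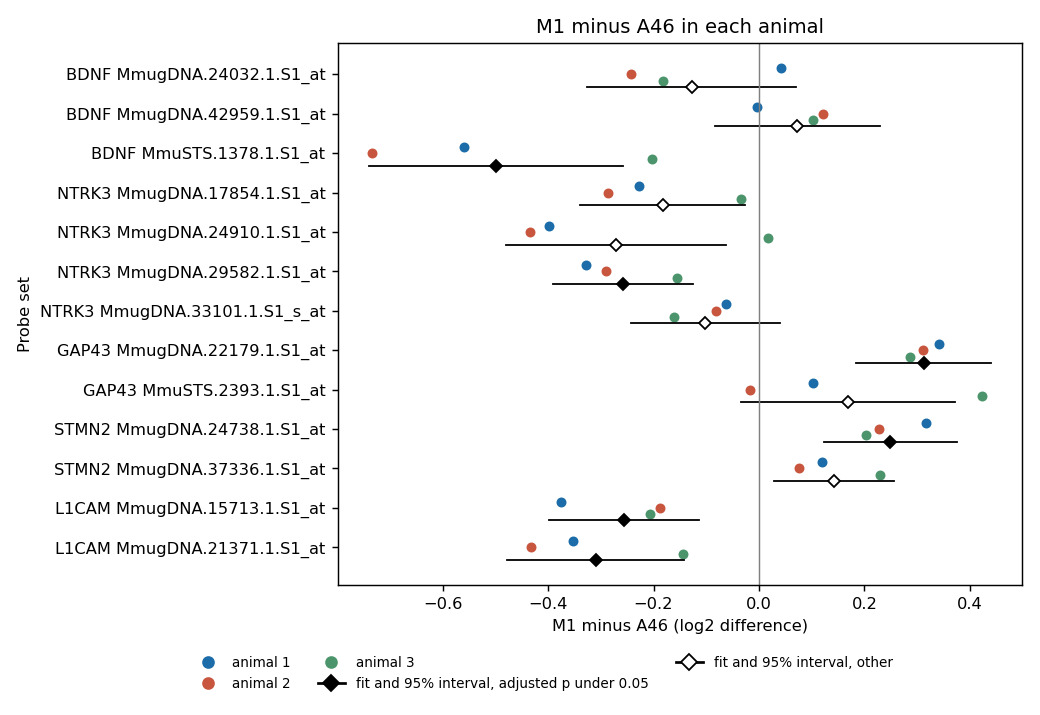
Difference between M1 and A46 (log2, x axis) for the 13 probe sets of BDNF, NTRK3, GAP43, STMN2 and L1CAM (y axis). Coloured points are the 3 animals, diamonds and black lines are limma's estimate with its 95% interval, and filled diamonds mark the 6 probe sets with an adjusted p under 0.05. The BDNF probe sets spread on both sides of 0, from -0.50 to 0.07, while both L1CAM probe sets lie below 0 and both STMN2 probe sets above it.

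These calls depended on the animals fitted. Without animal 1, 1 of the 6 calls was kept (GAP43 MmugDNA.22179.1.S1_at), without animal 2 none was, and without animal 3 all 6 were. In a model without the animal block, 1 of the 6 was kept (BDNF MmuSTS.1378.1.S1_at), and with the arrays of the left hemisphere alone 0 were, against 5 with those of the right. All 6 kept their direction in each of these fits. Without an animal this was fixed beforehand, since each of the 6 had 1 sign in all 3 animals. The model without the block cannot change the differences either, because each animal gave every area. The arrays carry control probe sets at both ends of the actin transcript, and the log2 ratio of 3′ to 5′ signal, which grows as RNA degrades, stood at 0.939 ± 0.054 for M1 and at 1.08 ± 0.11 for A46 (SD, n = 3), while the same ratio for GAPDH was 0.956 ± 0.039 in M1 and 0.842 ± 0.048 in A46. With the actin ratio as a covariate, the 6 differences kept their direction and 0 of 6 passed, with adjusted p of 0.138 to 0.442.

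BDNF was the ligand of the set, and 1 of its 3 probe sets was called. MmuSTS.1378.1.S1_at had an intensity of 53.3, 60.7 and 75.6 in M1 (lowest, median and highest of 6 arrays). It had 80.4, 88.0 and 98.2 in PMd, and 45.8, 75.3 and 89.9 in PMv. In A46 it had 80.5, 89.3 and 93.7. Every M1 array lay below every PMd array and every A46 array, while PMv spanned the range of the others. The mean log2 intensity was 5.95 ± 0.17 in M1, 6.47 ± 0.01 in PMd, 6.16 ± 0.26 in PMv and 6.45 ± 0.10 in A46 (SD, n = 3).

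The signal of this probe set fell by 29.2% in M1 relative to A46 (log2 difference -0.50, SE 0.11, adjusted p = 0.0103). The difference was -0.56, -0.73 and -0.20 in animals 1, 2 and 3. Against PMd it was almost as large, -0.51 (SE 0.11, unadjusted p = 0.000493), but its adjusted p of 0.0778 did not pass, in a contrast in which 0.33% of tested probe sets were called. Against PMv it was -0.21 (SE 0.11), and PMv differed from A46 by -0.29 (SE 0.11, adjusted p = 0.186). PMd and A46 were the nearest neighbours in the order of levels, with a difference of 0.01 (SE 0.11). The F test for any difference among the areas passed (adjusted p = 0.0261), as it did for 6.53% of all tested probe sets. The M1 against A46 call was lost without animal 1 (adjusted p = 0.0635), without animal 2 (0.343), on left arrays alone (0.167) and with the actin ratio (0.178).

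MmugDNA.42959.1.S1_at, the other BDNF probe set past the filter, was nearly level. It had 54.3, 57.0 and 65.0 in M1, 51.3, 62.6 and 64.3 in PMd, 54.1, 59.3 and 64.5 in PMv and 51.1, 55.4 and 60.7 in A46 (lowest, median and highest of 6 arrays). All 4 areas overlapped. M1 minus A46 was 0.07 (95% interval -0.08 to 0.23, adjusted p = 0.595), an interval that holds no decrease of the size seen with MmuSTS.1378.1.S1_at. The signal of this level probe set was low, at the 54.3 percentile of the array, and that of MmuSTS.1378.1.S1_at was at the 61.4 percentile. How well probe sets of such low signal follow BDNF was not tested.

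MmugDNA.24032.1.S1_at was dim, with a mean log2 intensity of 5.05, at the 39.2 percentile of the array. Its intensity was 25.9 to 37.3 in M1, 29.9 to 32.8 in PMd, 28.5 to 49.5 in PMv and 31.1 to 38.2 in A46. Tested among all probe sets with no filter, M1 minus A46 was -0.13 (95% interval -0.33 to 0.07, adjusted p = 0.577). The highest value of this probe set and the lowest of MmuSTS.1378.1.S1_at both came from the left PMv array of animal 1.

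**Figure D2:**
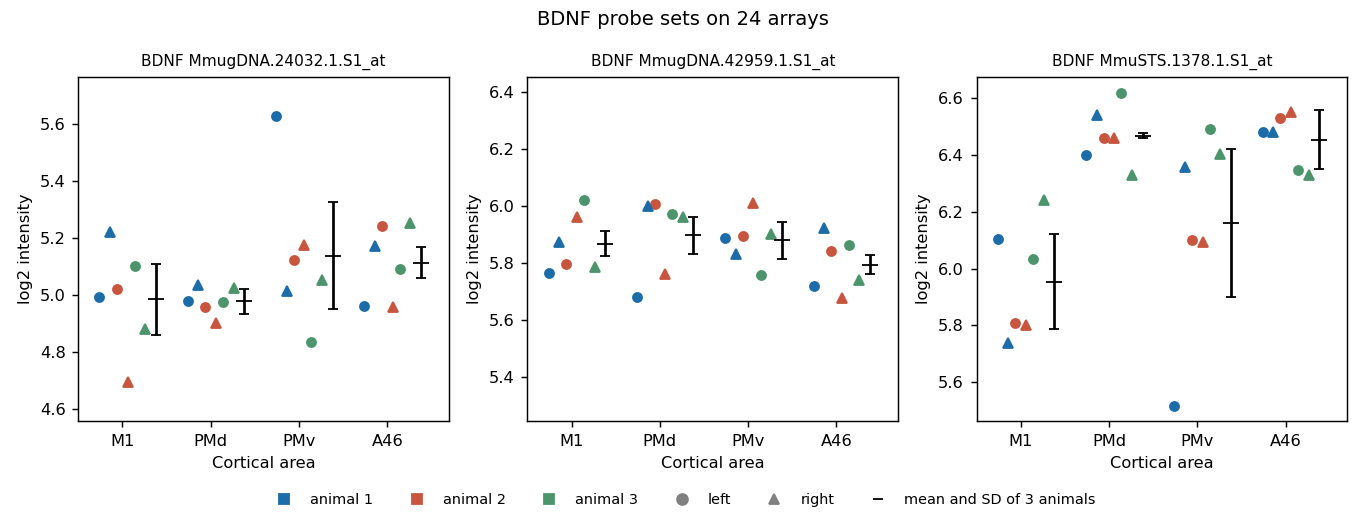
Log2 intensity (y axis) of the 3 BDNF probe sets on 24 arrays by area (x axis), with circles for left and triangles for right hemispheres, colours for animals, and bars for the mean and SD of 3 animals. All panels span the same number of log2 units, and the M1 arrays lie apart from the PMd and A46 arrays for MmuSTS.1378.1.S1_at alone.

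The difference between the BDNF probe sets was tested on its own, by an exact permutation test that relabelled the areas within each animal (576 relabellings, smallest p 0.00174). M1 minus A46 of MmugDNA.42959.1.S1_at exceeded that of MmuSTS.1378.1.S1_at by 0.57 ± 0.28 (SD, n = 3), with 0.30 to 0.86 in the animals and the same sign in 3 of 3. The area pattern of that difference had an exact p of 0.0642, adjusted over the 12 pairs of probe sets of 1 gene to 0.319, and did not pass. For MmugDNA.24032.1.S1_at the excess was 0.37 ± 0.31 (SD, n = 3; exact p = 0.0972, adjusted p = 0.319). Over the 12 animal-by-area means, with each animal's mean removed, the 3 BDNF probe sets correlated with each other at -0.30, -0.14 and -0.09. These are descriptions over means that share animals and arrays. Area accounted for 72.1% of the variance of the 12 means for MmuSTS.1378.1.S1_at, 44.8% for MmugDNA.42959.1.S1_at and 35.8% for MmugDNA.24032.1.S1_at.

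The other ligands gave little to set beside BDNF. NTF3, which encodes neurotrophin-3, and NTF4, which encodes neurotrophin-4, lay below the intensity filter, with a summed intensity of 44.8 to 49.7 in M1 and 44.1 to 54.7 in A46.

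NTRK3, the receptor of the set, was lower in M1 than in A46 with all 4 of its probe sets, and 1 of them was called. MmugDNA.29582.1.S1_at had an intensity of 361, 406 and 441 in M1, 446, 468 and 509 in PMd, 414, 438 and 485 in PMv and 460, 486 and 505 in A46 (lowest, median and highest of 6 arrays). The M1 arrays lay below all A46 arrays and all PMd arrays. Such a separation from PMd was seen for 2 of the 12 probe sets, this one and BDNF MmuSTS.1378.1.S1_at, against 1.22% of all tested probe sets.

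The mean log2 intensity of MmugDNA.29582.1.S1_at was 8.66 ± 0.10 in M1, 8.88 ± 0.04 in PMd, 8.80 ± 0.05 in PMv and 8.91 ± 0.02 in A46 (SD, n = 3). Its signal fell by 16.4% in M1 relative to A46 (log2 difference -0.26, SE 0.06, adjusted p = 0.0147), with -0.33, -0.29 and -0.16 in animals 1, 2 and 3. M1 minus PMd was -0.23 (SE 0.06, adjusted p = 0.157) and M1 minus PMv was -0.14 (SE 0.06, adjusted p = 0.287). The neighbours at the top of the order, PMd and A46, differed by -0.03 (SE 0.06). The F test for any difference among the areas did not pass (adjusted p = 0.0631). The call was lost without animal 1 (adjusted p = 0.146), without animal 2 (0.355), on left arrays (0.202), with the actin ratio (0.442) and without the animal block (0.0531).

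The other NTRK3 probe sets had the same sign and wider error. MmugDNA.24910.1.S1_at was at 83.7 to 124 in M1 and 112 to 126 in A46, a difference of -0.27 (SE 0.10, adjusted p = 0.0871), with -0.40, -0.43 and 0.02 in animals 1, 2 and 3. MmugDNA.17854.1.S1_at was at 69.0 to 88.3 in M1 and 81.4 to 90.9 in A46, a difference of -0.18 (SE 0.07, adjusted p = 0.126). In animal 3, neither separated M1 from A46 by more than 0.04. MmugDNA.33101.1.S1_s_at, whose suffix marks probes that match more than 1 transcript, was at 138 to 184 in M1 and 159 to 198 in A46, a difference of -0.10 (SE 0.07, adjusted p = 0.371).

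The animal set more of the variance than the area for 3 of the 4 NTRK3 probe sets. Animal accounted for 79.4% of the variance of the 12 means of MmugDNA.33101.1.S1_s_at, 59.3% of MmugDNA.17854.1.S1_at, 42.4% of MmugDNA.24910.1.S1_at and 7.93% of MmugDNA.29582.1.S1_at. The order of animals was not the same for all. In A46 animal 2 was highest with MmugDNA.33101.1.S1_s_at, at 188, against 164 in both other animals, while in M1 animal 3 was highest with MmugDNA.24910.1.S1_at, at 119, against 90.3 and 84.0 in animals 1 and 2. No difference in area pattern was shown for any of the 6 pairs of NTRK3 probe sets (exact permutation p from 0.066 to 0.91, adjusted p from 0.319 to 0.91), and their correlations over the 12 means ran from 0.19 to 0.89.

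**Figure D3:**
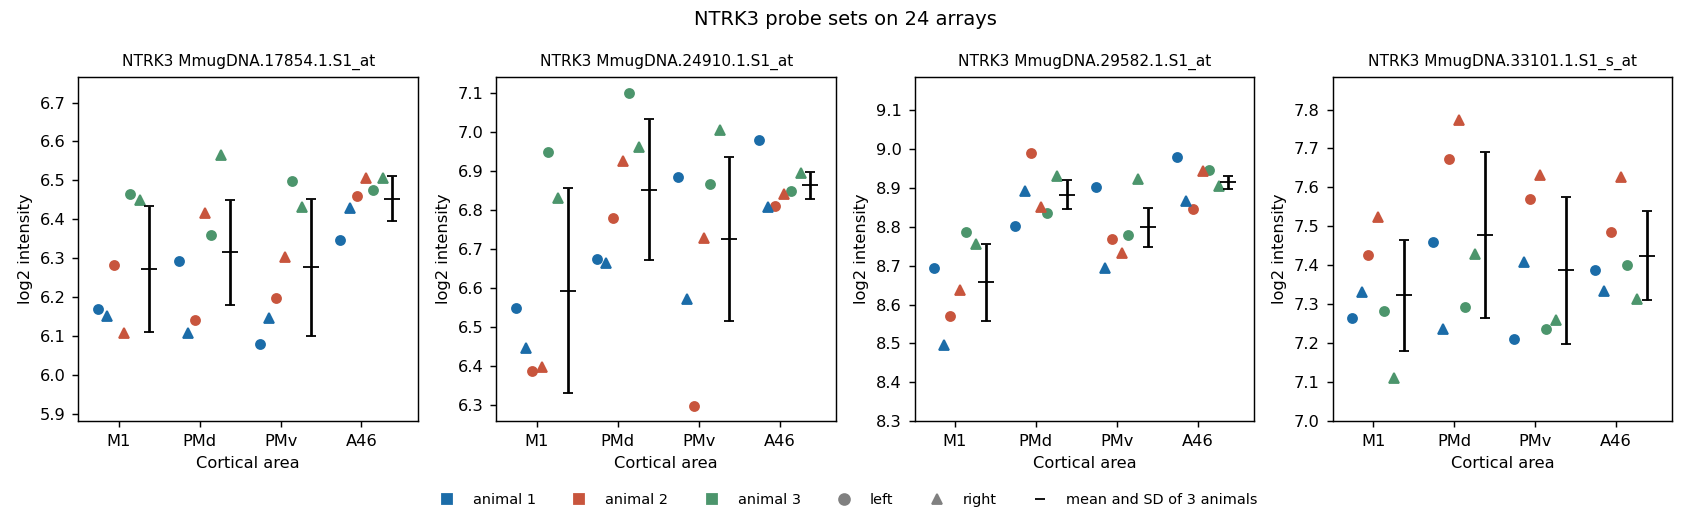
Log2 intensity (y axis) of the 4 NTRK3 probe sets on 24 arrays by area (x axis), drawn as for BDNF with equal spans in all panels. M1 is lowest by mean in each panel, and animals stay apart within areas for MmugDNA.33101.1.S1_s_at, where animal 2 has the highest mean in every area.

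Other receptors for neurotrophins and their precursors did not pass in this contrast. NGFR (p75) differed between M1 and A46 by -0.10 (SE 0.12, adjusted p = 0.657), and SORCS3, a sortilin family protein, by 0.04 (SE 0.08, adjusted p = 0.839). SORCS1, a sorting receptor of the same family, differed by 0.15 (SE 0.06, adjusted p = 0.147). It was called in PMd against A46 (0.31, adjusted p = 0.0302), where 2.51% of all genes were called by their brightest probe set. The call passed in 6 of 12 alternative fits. Among the losses were the fits without animal 1 (0.302) or 2 (0.732), without the block (0.374), and on left (0.261) or right arrays (0.0884). Annotation used here gave no probe set of NTRK2, SORT1 or SORCS2 alone.

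Adaptors that couple Trk receptors to their pathways were called in 2 of 14 tested genes, both lower in M1, where 14.7% of all genes were called by their brightest probe set, 8.77% higher and 5.89% lower. SHC1, which links the receptor to Ras, averaged 7.84 ± 0.07 (log2 intensity) in M1, against 8.17 ± 0.06 in A46 (SD, n = 3; difference -0.33, SE 0.06, adjusted p = 0.00463). SH2B2 averaged 6.17 ± 0.06 in M1, against 6.42 ± 0.07 in A46 (SD, n = 3; difference -0.25, SE 0.07, adjusted p = 0.0241). SHC3, the neuronal family member, differed by -0.15 (adjusted p = 0.18) and PLCG1, a phospholipase recruited by Trk receptors, by 0.16 (adjusted p = 0.143). The median difference of the 14 genes was -0.04, against -0.01 for all tested probe sets. Both calls were lost without animal 1 (adjusted p = 0.0572 for SHC1 and 0.177 for SH2B2), without animal 2 (0.198 and 0.327, in the same order) and with the actin ratio (0.163 and 0.26). That of SH2B2 was also lost without the block (0.101), on left arrays (0.115) and on right arrays (0.13).

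GAP43 was higher in M1 than in A46 with MmugDNA.22179.1.S1_at. Its intensity was 872, 990 and 1109 in M1, 829, 928 and 1140 in PMd, 815, 901 and 1017 in PMv and 712, 775 and 879 in A46 (lowest, median and highest of 6 arrays). The arrays overlapped slightly, the lowest M1 array being below the highest A46 array, and the animal means did not. The mean log2 intensity was 9.94 ± 0.11 in M1, 9.88 ± 0.14 in PMd, 9.82 ± 0.07 in PMv and 9.63 ± 0.11 in A46 (SD, n = 3).

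The M1 signal was 1.24 times that of A46 (log2 difference 0.31, SE 0.06, adjusted p = 0.00385), and the 3 animals gave 0.34, 0.31 and 0.29, the narrowest spread of the 13 probe sets in this contrast (SD 0.03). Of the variance of its 12 means, area took 62.1%, animal 31.4% and the remainder 6.46%. PMd was also above A46, by 0.25 (SE 0.06, adjusted p = 0.0491), the only call among the 12 probe sets in a contrast in which 1.95% of all were called. PMv was above A46 by 0.20 (SE 0.06, adjusted p = 0.116), with 0.13, 0.25 and 0.21 in the animals. The F test passed (adjusted p = 0.0221).

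The GAP43 call in M1 against A46 was lost without animal 2 (adjusted p = 0.188), on left arrays (0.243), with the actin ratio (0.171) and without the animal block (0.0896). The call in PMd against A46 was lost without animal 1 (0.376) or 2 (0.826), without the block (0.513), on left (0.438) or right (0.0646) arrays, with the actin ratio (0.34), with no filter (0.0746) and with an offset of 32 (0.0508).

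The other GAP43 probe set, MmuSTS.2393.1.S1_at, was not called. Its intensity was 1347, 1706 and 2041 in M1, 1355, 1690 and 1822 in PMd, 1126, 1454 and 1842 in PMv and 1366, 1462 and 1605 in A46 (lowest, median and highest of 6 arrays). All areas overlapped, and the lowest M1 array was below the lowest A46 array. M1 minus A46 was 0.17 (95% interval -0.03 to 0.37, adjusted p = 0.288), with 0.10, -0.02 and 0.42 in animals 1, 2 and 3. PMv stood on the other side of A46 in animals 1 and 2, at -0.29 and -0.16, and above it in animal 3, at 0.32.

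The 2 GAP43 probe sets differed in their M1 minus A46 by 0.14 ± 0.25 (SD, n = 3), positive in 2 of 3 animals. The exact permutation test of the area pattern of that difference gave p = 0.313, adjusted over the 12 pairs to 0.442, so no difference between them was shown, and the interval of MmuSTS.2393.1.S1_at holds the value of MmugDNA.22179.1.S1_at. They correlated at 0.51 over the 12 animal-removed means. Both agreed in the sign of M1 minus A46 and of PMd minus A46, and not in the sign of PMv minus A46.

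STMN2 was higher in M1 than in A46 with both probe sets, and 1 was called. MmugDNA.24738.1.S1_at had 4579, 4922 and 5487 in M1, 4261, 4779 and 5548 in PMd, 3787, 4335 and 5005 in PMv and 3941, 4106 and 4541 in A46 (lowest, median and highest of 6 arrays). The M1 and A46 arrays did not overlap. The mean log2 intensity was 12.28 ± 0.10 in M1, 12.24 ± 0.15 in PMd, 12.10 ± 0.13 in PMv and 12.03 ± 0.06 in A46 (SD, n = 3), an order that is the same as for GAP43 MmugDNA.22179.1.S1_at.

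Its M1 signal was 1.19 times that of A46 (log2 difference 0.25, SE 0.06, adjusted p = 0.0135), with 0.32, 0.23 and 0.20 in animals 1, 2 and 3. PMd minus A46 was 0.20 (SE 0.06, adjusted p = 0.103) and M1 minus PMv was 0.19 (SE 0.06, adjusted p = 0.136). The F test passed narrowly (adjusted p = 0.0445). The call was lost without animal 1 (0.148), without animal 2 (0.255), on left arrays (0.16), with the actin ratio (0.138) and without the block (0.181).

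MmugDNA.37336.1.S1_at had 4242, 4553 and 5005 in M1 and 3860, 4170 and 4409 in A46. The difference was 0.14 (SE 0.05, adjusted p = 0.0998), positive in 3 of 3 animals. No difference in area pattern between the 2 STMN2 probe sets was shown by the exact permutation test (p = 0.332, adjusted p = 0.442), and they correlated at 0.69.

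L1CAM was lower in M1 than in A46 with both probe sets, the only gene of the 5 for which every probe set was called in this contrast. The F test for any difference among the areas passed for neither (adjusted p = 0.114 for MmugDNA.21371.1.S1_at and 0.099 for MmugDNA.15713.1.S1_at). MmugDNA.21371.1.S1_at had 614, 669 and 754 in M1, 662, 744 and 821 in PMd, 630, 739 and 897 in PMv and 800, 825 and 901 in A46 (lowest, median and highest of 6 arrays). The M1 and A46 arrays did not overlap, and PMv held both the widest range and values from both ends. The mean log2 intensity was 9.39 ± 0.11 in M1, 9.53 ± 0.11 in PMd, 9.57 ± 0.22 in PMv and 9.70 ± 0.04 in A46 (SD, n = 3).

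Its signal fell by 19.3% in M1 relative to A46 (log2 difference -0.31, SE 0.08, adjusted p = 0.0194), with -0.35, -0.43 and -0.14 in animals 1, 2 and 3. PMd minus A46 was -0.17 (SE 0.08, adjusted p = 0.319) and PMv minus A46 was -0.13 (SE 0.08), with -0.32, -0.22 and 0.14 in the animals.

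MmugDNA.15713.1.S1_at had 168, 188 and 228 in M1, 177, 224 and 247 in PMd, 184, 217 and 252 in PMv and 209, 226 and 249 in A46. The arrays of the areas overlapped, and animal accounted for 52.6% of the variance of the 12 means and area for 40.4%. Its signal fell by 16.3% in M1 relative to A46 (log2 difference -0.26, SE 0.07, adjusted p = 0.0216), with -0.38, -0.19 and -0.21 in the animals. Both calls were lost without animal 1 (adjusted p = 0.1 for MmugDNA.21371.1.S1_at and 0.206 for MmugDNA.15713.1.S1_at), without animal 2 (0.459 and 0.269, in the same order), on left arrays (0.203 and 0.13), with the actin ratio (0.171 and 0.266) and without the block (0.148 and 0.277), and that of MmugDNA.15713.1.S1_at also on right arrays (0.157). The 2 probe sets correlated at 0.83, and no difference in their area patterns was shown by the exact permutation test (p = 0.602, adjusted p = 0.657).

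**Figure D4:**
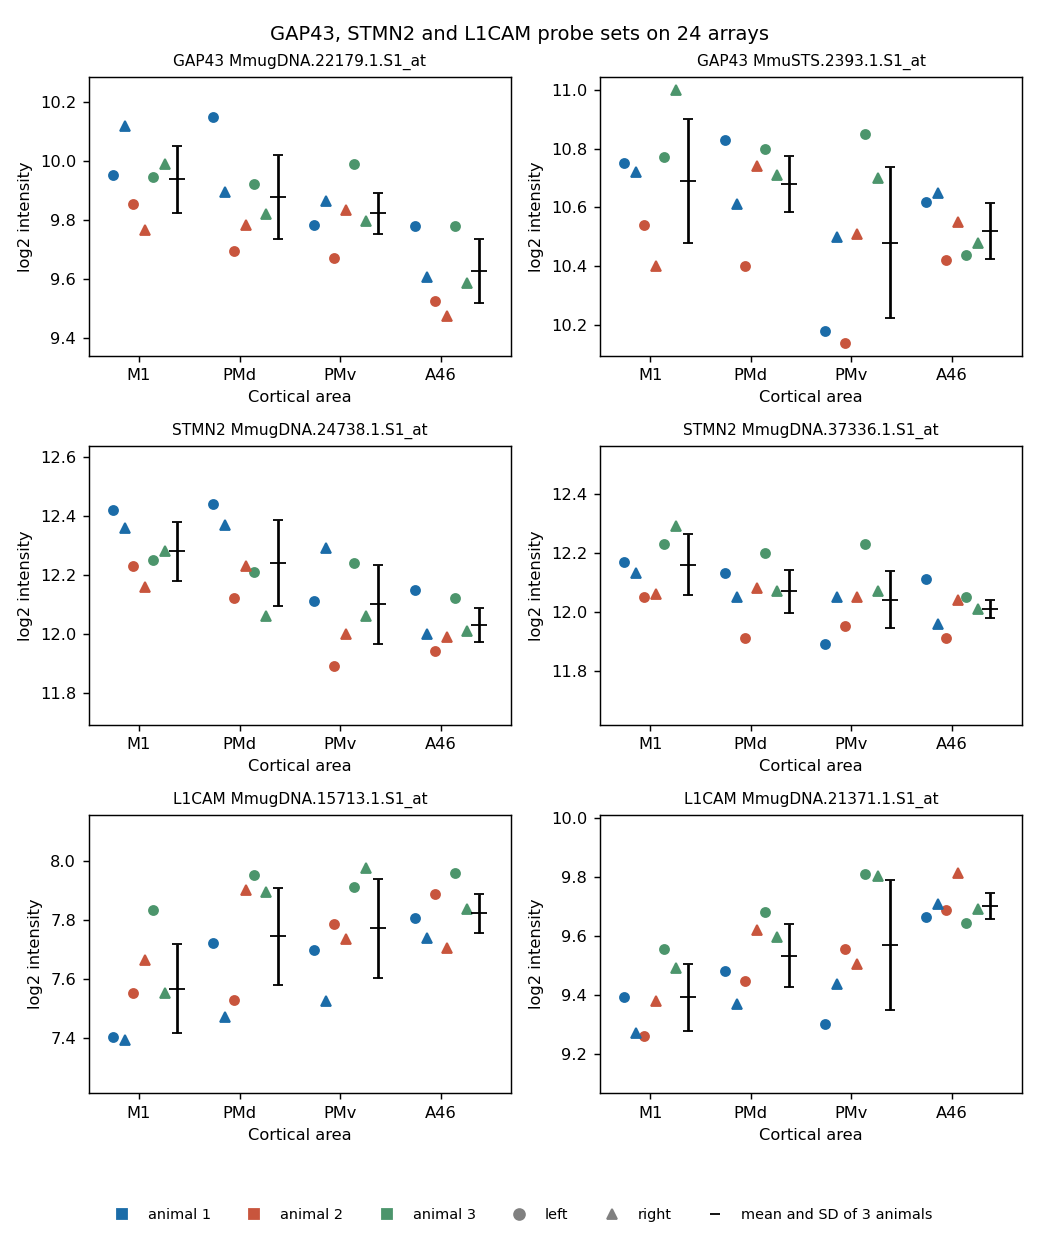
Log2 intensity (y axis) of the GAP43, STMN2 and L1CAM probe sets on 24 arrays by area (x axis), with circles for left and triangles for right hemispheres, colours for animals, and bars for the mean and SD of 3 animals. Panels span the same number of log2 units. M1 has the highest mean for GAP43 and STMN2 and the lowest for L1CAM, and PMv has the widest SD for GAP43 MmuSTS.2393.1.S1_at and both L1CAM probe sets.

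Other genes of axon growth did not share 1 direction. Of 17 tested genes of growth cones and axon growth, GAP43 and STMN2 aside, 2 were higher in M1, 5 were lower and 10 did not pass, with a median difference of -0.03. Of all genes, 8.77% were higher and 5.89% lower, a share near that of the 2 higher genes. CAMK2N1, an inhibitor of CaM kinase II, fell by 0.39 on the log2 scale (SE 0.05, adjusted p = 0.000231), to 12.58 ± 0.04 in M1, against 12.97 ± 0.03 in A46 (SD, n = 3). CRMP1, a collapsin response mediator of semaphorin signalling, fell by 0.33 (adjusted p = 0.00297), and NRN1, which encodes the neurite-promoting protein neuritin, by 0.33 (adjusted p = 0.0215). GPM6A, a membrane glycoprotein of neurites, fell by 0.22 (adjusted p = 0.0116). The remaining calls, named after their values were seen, were SOX11, a transcription factor of developing neurons (-0.51, adjusted p = 0.0118), STMN4, of the stathmin family like STMN2 (0.26, adjusted p = 0.0396), and FEZ1, a kinesin adaptor (0.21, adjusted p = 0.0374). STMN3 was level, at 0.00 (SE 0.05).

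Without animal 2, none of these 7 growth genes passed, with adjusted p from 0.0507 for CAMK2N1 to 0.672 for STMN4. Without animal 1, without the block, and likewise with the actin ratio, CAMK2N1 alone did. STMN4 and FEZ1, the 2 higher genes, also failed with no filter (adjusted p = 0.0549 and 0.0647, in that order). The same held on left (0.168 and 0.161) and on right arrays (0.0764 and 0.131). On left arrays NRN1 (0.252), GPM6A (0.12) and SOX11 (0.0554) failed as well, while on right arrays the 5 lower genes passed.

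In the L1 family and its axonal partners, 1 of 9 tested genes other than L1CAM was higher in M1 and 1 was lower, near the shares of all genes (8.77% higher and 5.89% lower), with a median difference of -0.07. ANK3, the ankyrin of axon initial segments and nodes, rose by 0.36 (SE 0.08, adjusted p = 0.0088), to 10.22 ± 0.08 in M1, against 9.86 ± 0.08 in A46 (SD, n = 3). NCAM1, a neural adhesion protein, fell by 0.25 (adjusted p = 0.0304) with its brightest probe set. Of its 8 other tested probe sets 5 had the same sign, and 4 were called, counted in either direction. NRCAM, the family member at nodes, differed by -0.28 (SE 0.15, adjusted p = 0.274) and CNTNAP1, of paranodes, by -0.10 (adjusted p = 0.672). ANK3 was lost without animal 2 (adjusted p = 0.316), on left arrays (0.17) and with the actin ratio (0.291), and NCAM1 without animal 1 (0.2) or 2 (0.341), without the block (0.29), on left arrays (0.356) and with the actin ratio (0.301).

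Activity-regulated genes, among which BDNF is usually counted, were lower in M1 than in A46 in 8 of 13 tested genes and higher in 0, against 5.89% of all genes lower and 8.77% higher, with a median difference of -0.46. EGR2, an immediate early transcription factor, fell by 0.88 (SE 0.11, adjusted p = 0.000302), to 6.89 ± 0.13 in M1, against 7.77 ± 0.10 in A46 (SD, n = 3). NR4A1, an orphan nuclear receptor, fell by 0.54 (adjusted p = 0.000887), EGR4 by 0.50 (adjusted p = 0.00208) and FOS by 0.47 (adjusted p = 0.00788). PMv was lower than A46 in 6 of the 13 and PMd in 0, where 1.54% of all genes were called in PMv against A46 (0.826% as lower) and 2.51% in PMd against A46 (0.697% as lower). BDNF MmuSTS.1378.1.S1_at had the order M1, PMv, A46, PMd from low to high, and the summed intensity of the 13 genes was 6449 to 6933 in M1, 7083 to 9571 in PMd, 5014 to 7154 in PMv and 7713 to 9197 in A46. Their part in the BDNF result was not tested. The 8 calls in M1 against A46 became 1 without animal 2, 2 without the block and 4 on left arrays, and the 6 in PMv against A46 became 1, 0 and 12 without animals 1, 2 and 3. Over all tested probe sets, the 324 calls in PMv against A46 became 47, 1 and 7010 in those 3 fits.

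**Figure D5:**
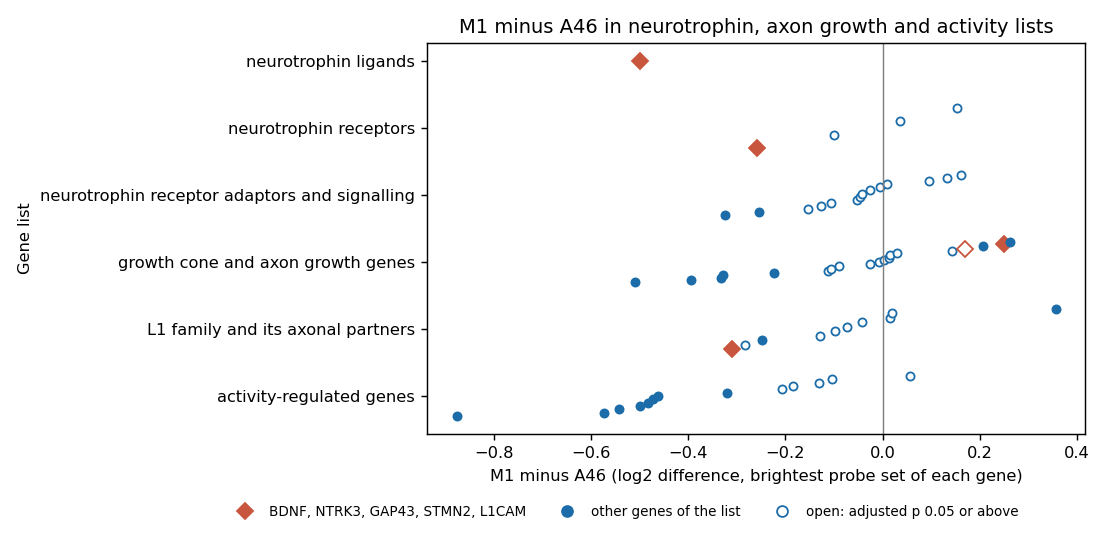
Difference between M1 and A46 (log2, x axis) of each tested gene, by its brightest probe set, in 6 gene lists (y axis). Red diamonds are BDNF, NTRK3, GAP43, STMN2 and L1CAM, circles are the other genes, and filled symbols have an adjusted p under 0.05. GAP43 is open here because its brightest probe set is MmuSTS.2393.1.S1_at. Of the 13 activity-regulated genes, 12 lie below 0, while the growth list lies on both sides.

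Markers of several cell types differed between M1 and A46 together with the 5 genes, in a contrast in which 14.7% of all genes were called. Of 6 oligodendrocyte markers 5 were higher in M1, with a summed intensity of 18440 to 25210 in M1 and 9607 to 13110 in A46. All 4 markers of large projection neurons were higher, with sums of 3949 to 5250 in M1 and 1191 to 1522 in A46. Of 4 excitatory neuron markers 1 was higher and 2 were lower (sums of 4274 to 5190 in M1 and 4787 to 5285 in A46), and of 4 interneuron markers 2 were higher and 1 was lower (3009 to 3374 in M1 and 2676 to 3220 in A46). Of 3 general neuron markers 1 was higher, of 6 astrocyte markers 2 were higher, of 9 microglial markers 2 were higher and 1 lower, and of 3 endothelial markers 0 were called. Under each of the 12 alternatives, 5 oligodendrocyte markers were higher by the test, and 4 large projection neuron markers were, or 3 without animal 2. Without animal 1, without animal 2, without the block and with the actin ratio, 0 excitatory neuron, general neuron and microglial markers were called, and 0 astrocyte markers without animal 2 and with the actin ratio. No marker list was at 0 in any area. The part of cell composition in the differences of BDNF, NTRK3, GAP43, STMN2 and L1CAM was not tested.

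The remaining contrasts called none of the 12 probe sets. Of all tested probe sets, 1.23% were called in PMv against A46, 0.33% in M1 against PMd, 1.87% in M1 against PMv and 0.00758% in PMd against PMv. An unadjusted p under 0.05 by limma was found for 3 of the 12 in PMv against A46 (18.8% of all tested probe sets), 5 in M1 against PMd (7.78% of all), 5 in M1 against PMv (15.1% of all) and 2 in PMd against PMv (5.4% of all). The 3 in PMv against A46 were GAP43 MmugDNA.22179.1.S1_at (0.20), BDNF MmuSTS.1378.1.S1_at (-0.29) and NTRK3 MmugDNA.17854.1.S1_at (-0.18). In M1 against PMv, both L1CAM probe sets were lower (-0.21 for MmugDNA.15713.1.S1_at and -0.18 for MmugDNA.21371.1.S1_at), with adjusted p of 0.145 and 0.303. M1 minus PMd had the same sign in all 3 animals for 10 of the 12 probe sets, negative for 8. M1 minus PMv did so for 10, negative for 6, and M1 minus A46 for 9, negative for 6. The share of all probe sets with the same sign in all 3 animals was not computed. These contrasts share areas, so their values are given side by side and not compared.

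Left and right hemispheres were compared over 12 pairs of 1 animal and area. None of the 12 probe sets passed, none had an unadjusted p under 0.05, and 0 of 26383 probe sets passed by limma, 2022 having an unadjusted p under 0.05. The 12 pairs came from 3 animals, so this test rests on more units than animals. The mean left minus right difference of the 13 probe sets ran from -0.07 (GAP43 MmuSTS.2393.1.S1_at) to 0.05 (L1CAM MmugDNA.15713.1.S1_at). Single pairs were wider. The widest was BDNF MmuSTS.1378.1.S1_at in PMv of animal 1, at -0.84, where MmugDNA.24032.1.S1_at was at 0.62. Without the left PMv array of animal 1, all 6 calls in M1 against A46 were kept.

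Among 10042 other genes, those with the most similar pattern over the 12 animal-removed means, which share 3 animals and their arrays, were as follows. For BDNF MmuSTS.1378.1.S1_at they were TPRG1L (r = 0.97), PI4KA (0.96) and CA10 (0.95). For NTRK3 MmugDNA.29582.1.S1_at they were the adaptor SHC1, DTX4 and RUNDC3A, all at 0.96. For GAP43 MmugDNA.22179.1.S1_at they were PSMD1 (0.99), IPO11 (0.98) and RSU1 (0.98), and for STMN2 MmugDNA.24738.1.S1_at they were SDC4 (0.96), MT3 (0.95) and NDUFB3 (0.95). For L1CAM MmugDNA.21371.1.S1_at they were VOPP1 (0.98), SSTR1 (0.97) and CNKSR2 (0.97), and for MmugDNA.15713.1.S1_at they were NWD2 (0.96), the adaptor SH2B2 (0.96) and CACNB3 (0.95).

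The probe sets that were not called had other nearest genes. For BDNF MmugDNA.42959.1.S1_at these were ASCC2 (0.94), FOXC1 (0.92) and EGFL8 (0.91), and for BDNF MmugDNA.24032.1.S1_at PIK3R5 (0.95), FGF23 (0.94) and EXOC3L4 (0.94). For GAP43 MmuSTS.2393.1.S1_at they were PAGE4 (0.96), GMPR2 (0.95) and TLK1 (0.95), and for STMN2 MmugDNA.37336.1.S1_at INSIG1, SH3BGRL2 and KRT222, all at 0.95. For NTRK3 they were MED13L (0.98), ATP6AP1 (0.97) and NEURL1 (0.97) with MmugDNA.17854.1.S1_at, RGMB (0.94), NRXN3 (0.92) and LYN (0.92) with MmugDNA.24910.1.S1_at, and GPR19, TBC1D25 and MAPK8IP2 (all at 0.87) with MmugDNA.33101.1.S1_s_at. No gene was among the 3 nearest to more than 1 probe set of the same member gene.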

How the data were processed

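Total RNA of 24 cortical pieces was hybridised to one-colour Affymetrix Rhesus arrays. The deposited values are linear intensities per probe set that the authors summarised by RMA, the robust multi-array average, according to the submitters' processing notes. Neither its version nor which arrays were normalised as 1 set is stated (not given in the sources used here). RMA brings arrays to a common distribution, so a shift of all transcripts cannot be seen. Arrays have no read depth, and 3 animals limit the precision.

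Log2 was taken of the intensities (floor 1, with 0 values below it), and 99 controls were removed. Of the remaining 52766 probe sets, 24956 had 1 gene symbol, 361 several and 27449 none, by GEO's platform annotation, which can be old. The 5 members matched RefSeq symbols by Entrez ID. No genome build is named, so no coordinates are given.

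Left and right values were averaged within animal and area, giving 12 means. Area and animal were the terms of a limma fit (limma 3.58.1 in R 4.3.3) with eBayes and an intensity trend (6 residual and 6.98 prior degrees of freedom). Probe sets with a mean log2 below the median, 5.62, were left out, and p-values were adjusted by Benjamini-Hochberg within a contrast, two-sided. Left minus right used 24 arrays blocked by pair (11 residual degrees of freedom). The pairing comes from the animal number in the titles. After area means were removed, 18 pairs of means of 1 animal correlated at 0.207 to 0.85, and 36 pairs of different animals at -0.561 to 0.065. The fits were tested on simulated data.

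The members and gene lists were chosen with earlier results of these data known. Up to 4 genes per pathway list with the smallest F-test p are named, with exceptions stated, and the 3 genes most correlated with each probe set. A gene with several probe sets is represented by the brightest. Alternatives were no animal block, each animal left out, no filter, an offset of 32, renewed quantile normalisation, the array's spread or the actin 3′ to 5′ ratio as a covariate, 1 hemisphere alone, and, chosen after seeing the data, the left PMv array of animal 1 left out.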

Additional observations from a re-analysis of the deposited data

Results flagged for a closer look

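The left minus right difference of NTRK3 MmugDNA.17854.1.S1_at ran in opposite directions in M1 and A46. In M1 it averaged 0.0686 on the log2 scale and was positive in all 3 animals, and in A46 it averaged -0.0535 and was negative in all 3. It was the 1 case picked out by a scan of the probe sets, and how many would arise with no difference was not computed. The difference between the areas was not tested. In none of the 52 groups of 6 arrays (13 probe sets in 4 areas) did an array stand apart from the other arrays of its group by Dixon's criterion.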

How the results depend on the processing

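In M1 against A46, all 12 tested probe sets of the 5 genes kept their direction under all 12 alternatives. Part of this was fixed beforehand. The differences cannot change without the block, with no filter or without the left PMv array of animal 1. For the 9 probe sets with 1 sign in all 3 animals, no fit without an animal could turn the sign. The number called, 6, was 1 without the animal block, 0 to 8 with an animal left out (0 without animal 2, 8 without animal 3), 0 on left arrays and 0 with the actin ratio. In PMd against A46, 1 was called, against 0 without the block, with no filter, with the offset, on left or right arrays and with the actin ratio, 2 with renewed quantile normalisation or the spread as a covariate, and 0 to 3 with an animal left out. Counts of 0 became 1 in PMv against A46 and 2 in M1 against PMv with quantile normalisation, and in M1 against PMd 2 with the spread and 1 without the left PMv array of animal 1. With an animal left out they were 0 to 5 in PMv against A46, 0 to 1 in M1 against PMd, 0 to 2 in M1 against PMv and 0 to 3 in PMd against PMv. For any area difference, 3 became 0 without the block, on left arrays and with the actin ratio, 1 on right arrays, 6 with quantile normalisation or the spread, and 0 to 7 with an animal left out. Left minus right stayed at 0, and so did the area pattern of probe set differences, which without an animal has too few relabellings to pass. The causes were not tested.

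Over all probe sets the 3391 calls in M1 against A46 became 1056 without the block, 1648, 403 and 5410 without animals 1, 2 and 3, 1263 on left arrays, 645 with the actin ratio and 6519 with the spread. The 515 calls in PMd against A46 became 8 without the block and 12 to 3055 with an animal left out, and the 1723 for any area difference became 288 and 129 to 7754. The 324 calls in PMv against A46 became 1 without the block and 47, 1 and 7010 without animals 1, 2 and 3. Without animal 3, the 87 calls in M1 against PMd became 239, the 494 in M1 against PMv 3814 and the 2 in PMd against PMv 1398. With quantile normalisation, 959 were called in PMd against A46, 810 in PMv against A46, 802 in M1 against PMv and 2583 for any area difference. With the spread, 2456 were called in PMd against A46, 668 in M1 against PMd and 4201 for any area difference. Without the left PMv array of animal 1, 243 were called in M1 against PMd. The 0 calls for left minus right became 252 with the spread and 38 on per-animal means.

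Of 744 recomputed differences of single probe sets of the 5 genes and the lists, 567 kept their direction and their side of the threshold, 143 no longer passed it, 30 newly passed it and 4 changed sign.

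Among values that were not called, some signs turned. With an animal left out, M1 minus A46 ran from -0.2307 to 0.02202 for NGFR, from -0.0008472 to 0.08019 for SORCS3 and from -0.2383 to 0.01923 for CNTNAP1, which was at 0.01998 on right arrays. The M1 minus A46 of NTRK3 MmugDNA.24910.1.S1_at less that of MmugDNA.29582.1.S1_at ran from -0.107 to 0.05163 and was 0.03456 with the offset, and that of L1CAM MmugDNA.15713.1.S1_at less that of MmugDNA.21371.1.S1_at ran from -0.04248 to 0.1109 and was -0.02712 on left arrays.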
